A study of Mus musculus with 8 samples.

Results

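Acyl-CoA thioesterases split fatty acyl-CoA into a free fatty acid and coenzyme A. The 9 genes of this family described here are Acot1, Acot2, Acot3, Acot4, Acot7, Acot8, Acot9, Acot12 and Acot13, and they were taken from the table of liver mRNA by symbol. Each of the 9 symbols was found once among the 11784 genes of the table. Livers came from 8 male C57BL/6J mice that began a defined amino acid diet at 9 weeks of age, with 4 mice on the Control diet and 4 on the Low AA diet, which has fewer of its calories from amino acids and more from carbohydrate. Each mouse ate its diet for 4 months and was killed after a fast of about 16 hours, so each value is from a fasted liver. Polyadenylated RNA was sequenced from 1 library per mouse, and mice are numbered 1 to 4 within each diet only to name them. The study fed these diets to learn how the liver transcriptome responds when dietary amino acids are restricted.

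Thioesterases act against the acyl-CoA synthetases, and the balance of the enzymes sets how much fatty acid is held in its activated form. Members sit in different compartments of the hepatocyte, so each draws on its own pool: Acot1 in the cytosol, Acot2 and Acot9 in mitochondria, and Acot3, Acot4 and Acot8 in peroxisomes. In rodent liver the type I genes Acot1 to Acot4 are known targets of PPARA, the nuclear receptor for fatty acids that is active in fasting. Below, the name type I genes stands for Acot1 to Acot4 only, not for a whole family, since Acot5 and Acot6 were not analysed.

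The type I genes lie side by side on mouse chromosome 12 of GRCm38 on the plus strand, in the order Acot2 (chr12:83987861-83993873), Acot1 (chr12:84009490-84018371), Acot4 (chr12:84038379-84048601) and Acot3 (chr12:84052144-84060402), over a span of 72.5 kb. Their coding sequences are close copies, which bears on every value below because reads from a shared stretch cannot be placed on 1 gene by their letters. The coding sequences of Acot1 and Acot2 were identical at 95.6% of aligned bases, those of Acot1 and Acot3 at 84.2%, and those of Acot1 and Acot4 at 76.1%. The longest identical run of Acot1 and Acot2 was 273 bases, printed here because a read that falls inside it matches both genes equally. In Acot1 it lies within 1 exon at chr12:84017006-84017278, and in Acot2 within 1 exon at chr12:83992728-83993000.

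Acot1 and Acot2 shared coding run: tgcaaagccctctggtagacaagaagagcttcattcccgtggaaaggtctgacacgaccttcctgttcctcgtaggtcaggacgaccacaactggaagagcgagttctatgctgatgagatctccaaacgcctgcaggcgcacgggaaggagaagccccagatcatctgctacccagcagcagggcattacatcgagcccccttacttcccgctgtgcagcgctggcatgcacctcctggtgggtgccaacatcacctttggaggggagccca

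Of all 100-base windows in the reference transcript, 21.9% of those of Acot1, 17.1% of those of Acot2 and 14.3% of those of Acot3 also occurred in a transcript of another gene. For Acot4 the share was 0.360%, with 22 of 6104 windows shared. Acot1 shared windows with Acot2, Acot3, Acot4, Acot5 and Acot6. Of the 478 shared windows of Acot3, 330 were shared with Gm49366, the gene that overlaps it on the same strand. Gm49366, Acot5 and Acot6 were not analysed here. Acot9 shared 16 of 1653 windows with Acot10, and Acot7, Acot8, Acot12 and Acot13 shared 0. The way the counting step divided shared reads therefore enters the values of Acot1, Acot2 and Acot3.

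The 150 bases before the RefSeq start are printed for the type I genes, whose values moved together among the mice, and for Acot12, the member outside that cluster with the highest level per kilobase. A PPARA and RXRA pair is known to bind AGGTCA repeated in the same direction with 1 base between the copies, so this repeat was searched on both strands with up to 2 mismatches over its 12 fixed letters. Windows ran from 250 bases before to 50 bases after the start in RefSeq's GRCm38.p6 annotation. Of 32841 such windows, 3.86% held a match and 0.554% held one with at most 1 mismatch. Windows were present for 8 of the members, and 2 of those 8 held a match, in capitals below. In Acot4 it began at base -13 with 2 mismatches, and in Acot12 at base -110 with 1 mismatch, both on the minus strand. Where RefSeq gives more than 1 start, as for Acot3, the more upstream one was used.

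Acot2, chr12:83987711-83987860, plus strand: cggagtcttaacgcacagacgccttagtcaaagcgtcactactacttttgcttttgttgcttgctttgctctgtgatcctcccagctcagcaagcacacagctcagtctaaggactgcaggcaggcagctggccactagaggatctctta
Acot1, chr12:84009352-84009501, plus strand: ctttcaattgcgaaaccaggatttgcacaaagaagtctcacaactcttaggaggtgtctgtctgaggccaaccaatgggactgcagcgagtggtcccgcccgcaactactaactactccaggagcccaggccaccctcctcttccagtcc
Acot4, chr12:84038229-84038378, plus strand: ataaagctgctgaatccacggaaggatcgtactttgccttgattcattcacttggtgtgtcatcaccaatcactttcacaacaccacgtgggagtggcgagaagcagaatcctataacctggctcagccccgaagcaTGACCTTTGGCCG
Acot3, chr12:84051994-84052143, plus strand: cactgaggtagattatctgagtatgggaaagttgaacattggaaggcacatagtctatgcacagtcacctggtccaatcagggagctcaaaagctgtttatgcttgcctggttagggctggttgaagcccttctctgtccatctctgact
Acot12, chr13:91741371-91741520, plus strand: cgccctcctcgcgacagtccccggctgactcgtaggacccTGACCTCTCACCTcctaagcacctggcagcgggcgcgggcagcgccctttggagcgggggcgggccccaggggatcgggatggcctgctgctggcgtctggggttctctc

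The deposited values are scaled and rounded read counts. They summed to between 27876664 and 30799385 per mouse. Across all 11784 genes, limma on log2(value + 1) called 47 genes at an adjusted p under 0.05, 12 of them higher on Low AA. The hepatocyte markers were all measured, 9 of 9, and their summed value was 2638364 to 2894069 on Low AA and 2457818 to 2746985 on Control. Control mouse 2 stood apart: Cela1, a pancreatic elastase gene, was 36587 there and 130 to 288 in the other mice, and the acute-phase genes Saa1 (57733), Saa2 (32724), Orm2 (693) and Lcn2 (1830) were also highest there. The log2 fold change of each thioesterase gene is therefore also given without Control mouse 2.

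All 4 type I genes were higher on Low AA on average, by 1.54-fold for Acot1 to 3.91-fold for Acot3, while the folds of the 5 other members lay between 0.948 and 1.15. No member passed the adjusted p threshold of 0.05 with all 8 mice. That was 0 of 9 members, where 0.399% of all genes were called. At an unadjusted p under 0.05 the type I genes stood on the higher side, 4 of 9 members against 5.13% of all genes, and 0 members stood on the lower side, where 6.7% of all genes did. The members were chosen with earlier results of these data known, and the type I genes varied together among the mice. Acot1, Acot2 and Acot3 also share sequence. The 4 are therefore not separate observations, and these shares are a description with no test. Acot3 alone was under an adjusted p of 0.1, a level that 1.12% of all genes reached in either direction and 0.356% on the higher side. The median log2 fold change was 0.20 over the 9 members and 0.0023 over all genes. The diets overlapped for every member, whereas 3.26% of all genes lay wholly higher and 3.55% wholly lower on Low AA.

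**Figure D1:**
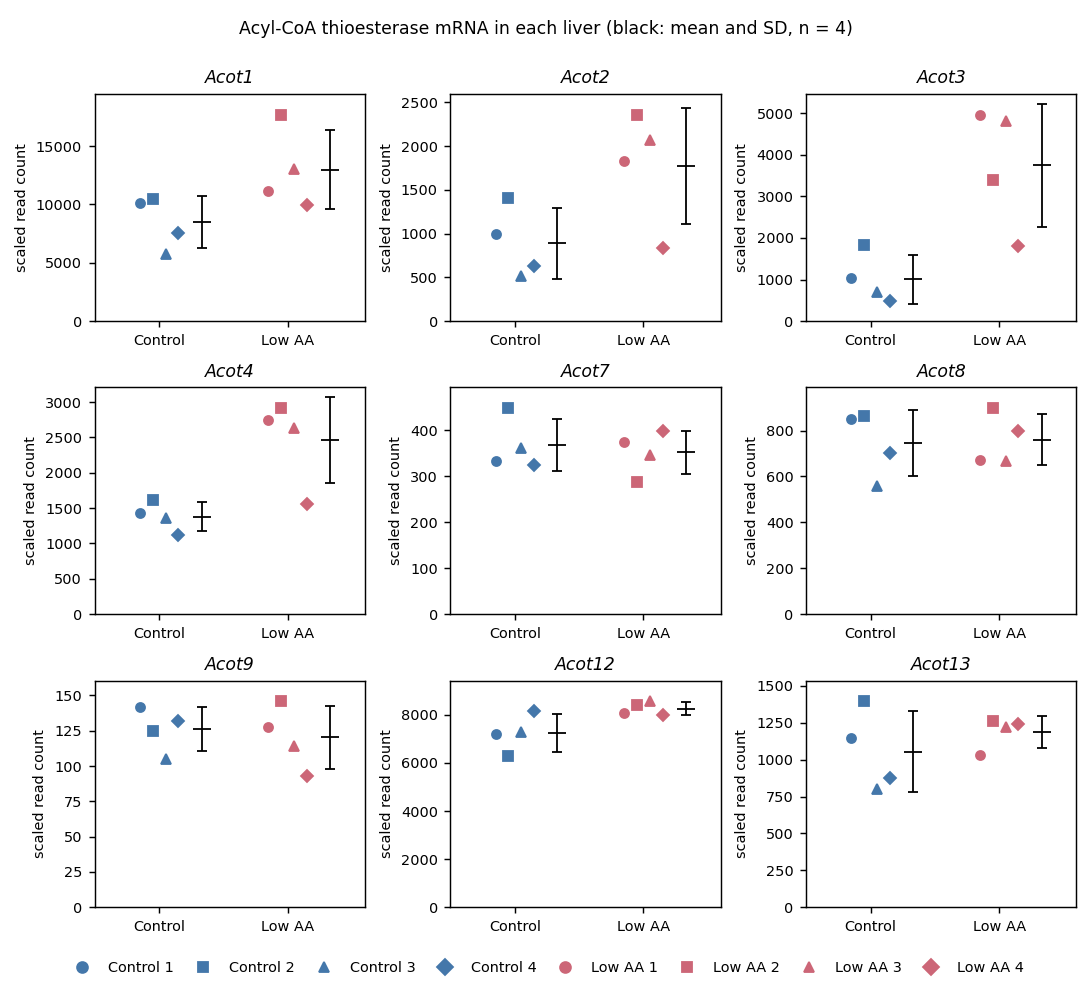
Scaled read count of each thioesterase gene in each liver, from 0, with 1 symbol per mouse and the mean and SD (n = 4) in black. For Acot1 to Acot4, 3 of the 4 Low AA mice lie above every Control mouse and Low AA mouse 4 lies among the Control mice. For Acot12, Control mouse 4 alone lies among the Low AA mice, and the remaining members overlap widely.

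Acot3 encodes a peroxisomal thioesterase for long-chain acyl-CoA and had the largest difference of the family. Its scaled counts were 4965, 3406, 4830 and 1802 in Low AA mice 1 to 4 and 1033, 1822, 688 and 486 in Control mice 1 to 4. The overlap rested on a single pair of values, since Low AA mouse 4 (1802) fell just below Control mouse 2 (1822). The mean was 3751 ± 1478 (SD, n = 4) on Low AA and 1007 ± 588 (SD, n = 4) on Control. The log2 fold change in limma was 1.97 (SE 0.41, 95% interval 1.05 to 2.88), with an adjusted p of 0.0841 over all genes. The exact two-sided permutation test of the mean log2 values gave p = 0.0571, where 4 against 4 mice cannot go below 0.0286. Acot3 overlaps 2 other annotated genes, Gm49366 on the same strand and 4732463B04Rik on the opposite strand.

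Acot4 lies next to Acot3 and encodes a peroxisomal enzyme that in mouse acts on succinyl-CoA. The scaled counts of Acot4 were 2745, 2915, 2631 and 1557 in Low AA mice 1 to 4 and 1436, 1611, 1357 and 1115 in Control mice 1 to 4. Low AA mice 1 to 3 lay close together and above all Control mice, and Low AA mouse 4 lay between Control mice 1 and 2. The log2 fold change was 0.81 (SE 0.20, 95% interval 0.37 to 1.24), with a limma adjusted p of 0.125, and the exact permutation p was 0.0571. The fold was 1.75, with a 95% interval of 1.29 to 2.37. The same 2 annotated genes that overlap Acot3 also overlap Acot4.

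Acot2 encodes the mitochondrial long-chain enzyme. Acot2 had scaled counts of 1835, 2358, 2069 and 835 in Low AA mice 1 to 4 and 993, 1413, 517 and 632 in Control mice 1 to 4. Low AA mouse 4 lay below Control mice 1 and 2, and the other Low AA mice lay above all Control mice. On the log2 scale the fold change was 1.01 (SE 0.37, 95% interval 0.19 to 1.82), with a limma adjusted p of 0.304 and an exact permutation p of 0.0857.

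Acot1 encodes the cytosolic long-chain enzyme and had the highest level of the family. Per mouse, scaled counts of Acot1 were 11175, 17686, 13034 and 9993 in Low AA mice 1 to 4 and 10099, 10483, 5723 and 7563 in Control mice 1 to 4. Low AA mouse 2 was far above the rest, and Low AA mouse 4 was below Control mice 1 and 2. The log2 fold change was 0.62 (SE 0.22, 95% interval 0.13 to 1.11), the smallest of the type I genes, with a limma adjusted p of 0.289 and an exact permutation p of 0.0857.

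How far the diets stood apart for the type I genes depended on single mice. For Acot1 the log2 fold change was 0.46 without Low AA mouse 2. Without Low AA mouse 4, the diets did not overlap for any of the 4, where 5.86% of all genes then lay wholly higher on Low AA. The log2 fold changes were then 0.74 for Acot1, 1.33 for Acot2, 2.28 for Acot3 and 1.01 for Acot4. Acot4 passed with a limma adjusted p of 0.0202, where 0.102% of all genes were called higher, and Acot3 had an adjusted p of 0.0513. Without Control mouse 2, Acot3 rose by 2.31 on the log2 scale with a limma adjusted p of 0.0294, where 0.221% of all genes were called higher. Log2 fold changes without Control mouse 2 were 0.74 for Acot1, 1.27 for Acot2 and 0.89 for Acot4, and 0.04 for Acot7, 0.12 for Acot8, -0.08 for Acot9, 0.13 for Acot12 and 0.35 for Acot13, with limma adjusted p-values of 0.108 to 0.945. In that comparison Acot3 and Acot4 did not overlap between the diets, and 5.96% of all genes lay wholly higher. Leaving out any other single mouse called no member, and all 4 type I genes stayed higher on Low AA. Over the 8 comparisons that left out 1 mouse each, the log2 fold change of Acot3 was 1.68 to 2.31. It was 0.45 to 0.74 for Acot1, 0.78 to 1.33 for Acot2 and 0.71 to 1.01 for Acot4. The largest limma adjusted p-values in these comparisons were 0.592 for Acot1, 0.648 for Acot2, 0.272 for Acot3 and 0.352 for Acot4.

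**Figure D2:**
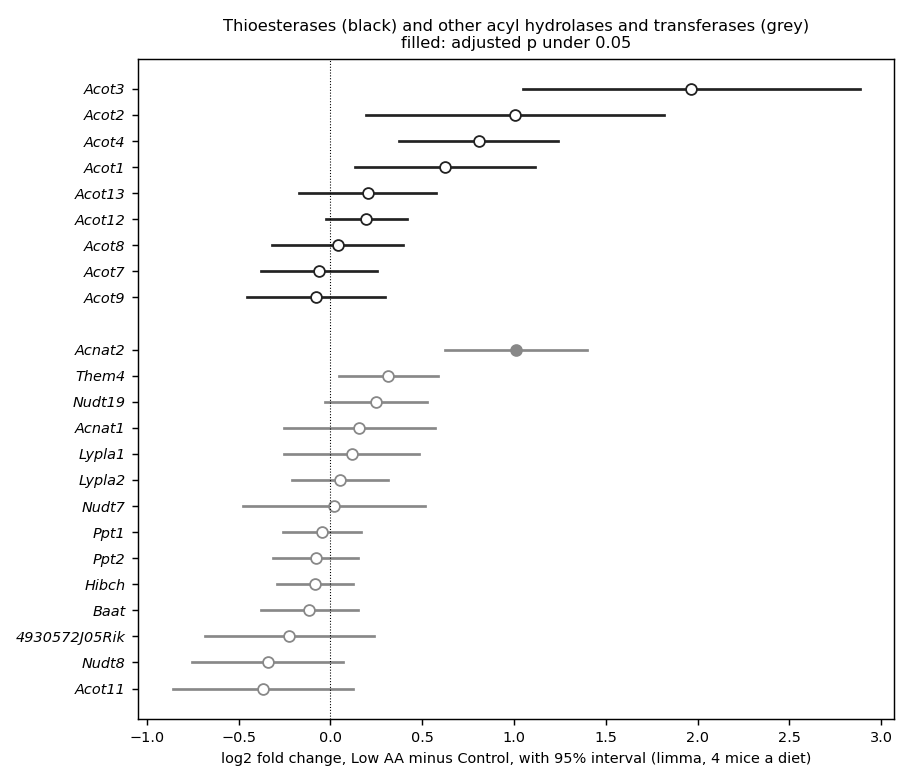
Log2 fold change, Low AA minus Control, with its 95% limma interval (4 mice a diet) for the 9 thioesterase genes in black and for 14 other acyl hydrolase and transferase genes in grey. Acot1 to Acot4 have intervals wholly above 0, but the filled point, for an adjusted p under 0.05, is that of Acnat2.

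The sum of Acot1 to Acot4 does not depend on how reads shared among these 4 genes were split between them. Scaled counts summed to 20720, 26365, 22564 and 14187 in Low AA mice 1 to 4 and to 13561, 15329, 8285 and 9796 in Control mice 1 to 4. Low AA mouse 4 lay between Control mice 1 and 2 also for the sum. The mean was 20959 ± 5090 (SD, n = 4) on Low AA and 11743 ± 3262 (SD, n = 4) on Control, a ratio of 1.78 described with no test. The log2 of this ratio was 0.84, and 0.99 without Control mouse 2. The sum leaves out Gm49366, Acot5 and Acot6, so reads shared with those genes are not covered by it, and Gm49366 holds 330 of the 478 shared windows of Acot3.

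The mix of the type I genes was also set beside the diets. Per kilobase of the longest transcript, Acot3 made up 20.7%, 10.7%, 18.1% and 10.5% of the 4-gene sum in Low AA mice 1 to 4 and 6.21%, 9.75%, 7.05% and 4.04% in Control mice 1 to 4. Every Low AA mouse had a larger Acot3 share than every Control mouse, although Low AA mice 2 and 4 were close to Control mouse 2. Log2 ratios between the type I genes, which no transcript length enters, were compared over 6 pairs after these values were seen. The log2 ratio of Acot3 to Acot4 was 0.54 ± 0.37 (SD, n = 4) on Low AA and -0.62 ± 0.61 (SD, n = 4) on Control, by the exact permutation test p = 0.0286. The log2 ratio of Acot1 to Acot3 was 1.86 ± 0.66 on Low AA and 3.21 ± 0.59 on Control, and that of Acot2 to Acot3 was -1.07 ± 0.39 and -0.11 ± 0.36, each with an exact p of 0.0286 (n = 4 a diet). Those 3 pairs had the smallest p that 4 against 4 mice allow and an adjusted p of 0.0571 over the 6 pairs, which does not pass 0.05. All 3 contain the same Acot3 values, so they are not separate observations. The ratios also depend on how the counting step divided reads shared among these genes, unlike the 4-gene sum. The division of reads shared with Gm49366, Acot5 and Acot6 enters both. Without Control mouse 2 the difference between the diets was 1.42 for Acot3 to Acot4, -1.57 for Acot1 to Acot3 and -1.04 for Acot2 to Acot3. Differences of the 3 pairs without Acot3 were -0.38, -0.18 and 0.20 on the log2 scale, with exact permutation p-values of 0.257, 0.429 and 0.571 (n = 4 a diet).

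**Figure D3:**
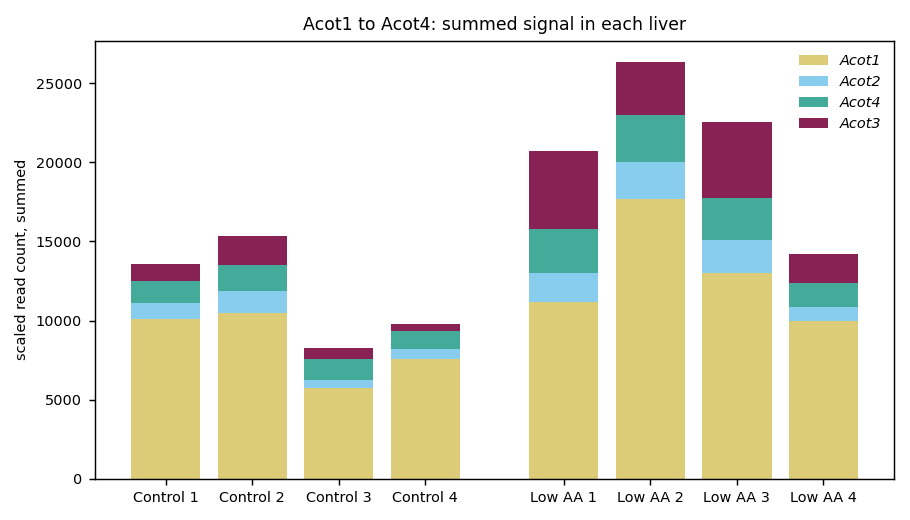
Scaled read counts of Acot1, Acot2, Acot4 and Acot3 stacked for each liver, from 0, with Control mice on the left and Low AA mice on the right. The sums run from 8285 to 15329 on Control and from 14187 to 26365 on Low AA, and Acot3 takes a larger share in every Low AA mouse; segment heights are not corrected for transcript length.

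The measured genes beside the cluster gave no such values. In the table, 4 other genes lie within 200 kb of it: Papln, Numb, 2410016O06Rik and Dnalc1. Their log2 fold changes were 0.04 to 0.25, and 0 of the 4 had an unadjusted limma p under 0.05. The difference between them and the type I genes was not tested.

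**Figure D4:**
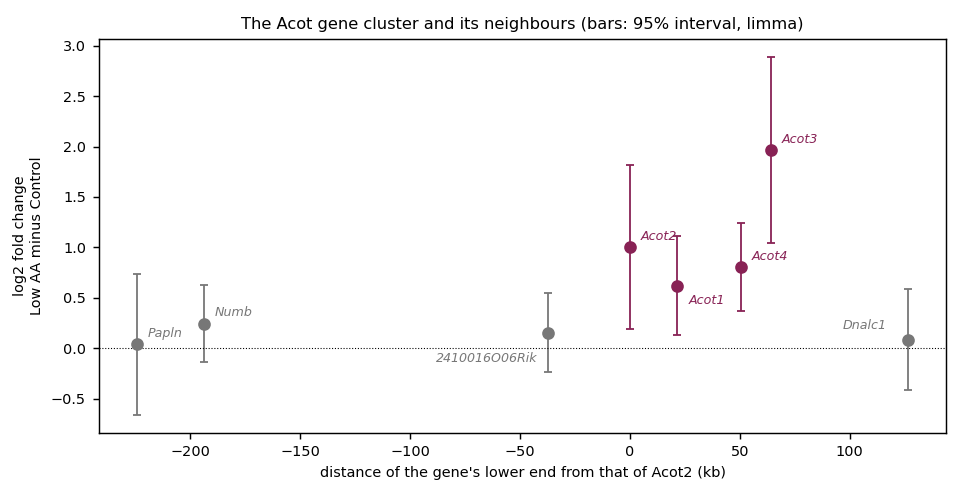
Log2 fold change with its 95% limma interval against the distance in kb of each gene's lower end from that of Acot2, for the type I genes (red) and the 4 neighbours in the table (grey). The type I genes lie at 0.62 to 1.97 and the neighbours at 0.04 to 0.25, with intervals that include 0.

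The other peroxisomal member, Acot8, acts on a broad range of acyl-CoA and lies on chromosome 2 (chr2:164792765-164804882, minus strand). Scaled counts of Acot8 were 670, 898, 669 and 800 in Low AA mice 1 to 4 and 850, 865, 558 and 704 in Control mice 1 to 4. The diets overlapped throughout, with a log2 fold change of 0.04 (95% interval -0.32 to 0.39) and a limma adjusted p of 0.954. Snx21, on the opposite strand, overlaps Acot8.

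Acot12 encodes a cytosolic acetyl-CoA hydrolase that is most abundant in liver, and its gene is on chromosome 13 (chr13:91741512-91786148, plus strand). In Acot12 the scaled counts were 8086, 8394, 8569 and 7979 in Low AA mice 1 to 4 and 7216, 6270, 7296 and 8172 in Control mice 1 to 4. The Low AA mice were tightly grouped, and Control mouse 4 alone reached them. The log2 fold change was 0.20 (95% interval -0.03 to 0.42), with a limma adjusted p of 0.495. The annotation overlaps Acot12 with 4833422C13Rik and Gm24597 on the opposite strand and Gm27656 on the same strand.

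Acot13, also called Them2, is a small hotdog-fold thioesterase that binds the phosphatidylcholine transfer protein Pctp, and it lies on the minus strand of the same chromosome (chr13:24817948-24831540). Acot13 had scaled counts of 1030, 1260, 1219 and 1245 in Low AA mice 1 to 4 and 1148, 1397, 803 and 873 in Control mice 1 to 4. Control mice covered a wider range than Low AA mice and included both the highest and the lowest value. The log2 fold change was 0.20 (95% interval -0.17 to 0.58), with a limma adjusted p of 0.719, and that of Pctp was 0.27, with a limma adjusted p of 0.392.

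Acot7, best known from brain, and the mitochondrial Acot9 had the lowest levels. Acot7 (chr4:152178134-152271855, plus strand) had scaled counts of 374, 288, 346 and 398 in Low AA mice 1 to 4 and 333, 448, 362 and 325 in Control mice 1 to 4. Acot9 (chrX:155262443-155297654, plus strand) had 128, 146, 114 and 93 in Low AA mice 1 to 4 and 142, 125, 105 and 132 in Control mice 1 to 4. Values of both genes were mixed between the diets, with log2 fold changes of -0.06 (95% interval -0.38 to 0.26) and -0.08 (95% interval -0.45 to 0.30). For Acot7, Acot8, Acot9, Acot12 and Acot13 the intervals also bound what these 4 mice a diet could have missed in either direction. Lower ends were -0.38, -0.32, -0.45, -0.03 and -0.17, and upper ends 0.26, 0.39, 0.30, 0.42 and 0.58 on the log2 scale.

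Levels between members were compared as scaled counts per kilobase of the longest annotated transcript, first over all 8 mice of both diets. Acot1 was highest at 4102 ± 1372 (SD, n = 8), followed by Acot12 at 2534 ± 251 and Acot13 at 1556 ± 283. Next came Acot3 at 693 ± 524, Acot2 at 606 ± 316 and Acot8 at 589 ± 93.5. The lowest were Acot4 at 310 ± 116, Acot7 at 239 ± 32.5 and Acot9 at 70.3 ± 10.4. Only Acot12 and Acot13, and Acot7 and Acot9, were neighbours in this order whose ranges over the 8 mice did not overlap. Within a diet the order of the middle members was not the same. On Control, Acot8 (583 ± 113, SD, n = 4) came above Acot2 (405 ± 184) and Acot3 (294 ± 171), and Acot7 (244 ± 37.4) above Acot4 (222 ± 33.2). On Low AA, Acot3 (1093 ± 431) and Acot2 (808 ± 301) came above Acot8 (595 ± 87.1), and Acot4 (397 ± 99.1) above Acot7 (234 ± 31.5). These orders within a diet were not tested. The order also depends on the length used: with the median length of the annotated transcripts, Acot12 (9908) came above Acot1 (6977), and Acot4 (2969), whose longest transcript has 6203 bases, came above Acot13 (2582).

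The type I genes varied together among the mice. Over the 8 mice the Pearson correlation of log2 values was 0.926 between Acot1 and Acot2, 0.947 between Acot3 and Acot4 and 0.794 between Acot1 and Acot3. With the diet means taken out these were 0.866, 0.838 and 0.555. The points share libraries and diets, and Acot1, Acot2 and Acot3 also share sequence, so the values are a description with no test. Correlations of Acot3 with Acot8, a peroxisomal member outside the cluster, were 0.184 over the 8 mice and 0.201 with diet means taken out. High values were not limited to the cluster. With diet means taken out, Acot1 correlated with Acot8 at 0.810, Acot9 at 0.774 and Acot13 at 0.744. These were above its 0.555 with Acot3 and 0.603 with Acot4. Its correlations with Acot7 (-0.265) and Acot12 (-0.244) were negative.

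The 3 genes of the table most like each type I gene over the 8 mice lay outside the family. For Acot1 they were Hadhb (r = 0.968), Qpct (0.955) and Hadha (0.951). Hadha and Hadhb encode the subunits of the mitochondrial trifunctional protein of beta-oxidation. For Acot3 they were Eci2 (0.983), a peroxisomal enoyl-CoA isomerase, D130043K22Rik (0.977) and the cytochrome P450 gene Cyp2b9 (0.970). For Acot2 they were Tgm2 (0.955), Trib2 (0.955) and Setd4 (0.953), and for Acot4 Strn4 (0.962), Ywhab (0.960) and Kdsr (0.956). With diet means taken out, r was 0.874 to 0.958 over the 12 pairs. Cyp2b9 ranged from 23 to 2940 scaled counts on Low AA and from 0 to 94 on Control, a far wider range than that of Acot3, so a high r does not mean a like size of difference. None of the 12 genes passed an adjusted p of 0.05 in limma.

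**Figure D5:**
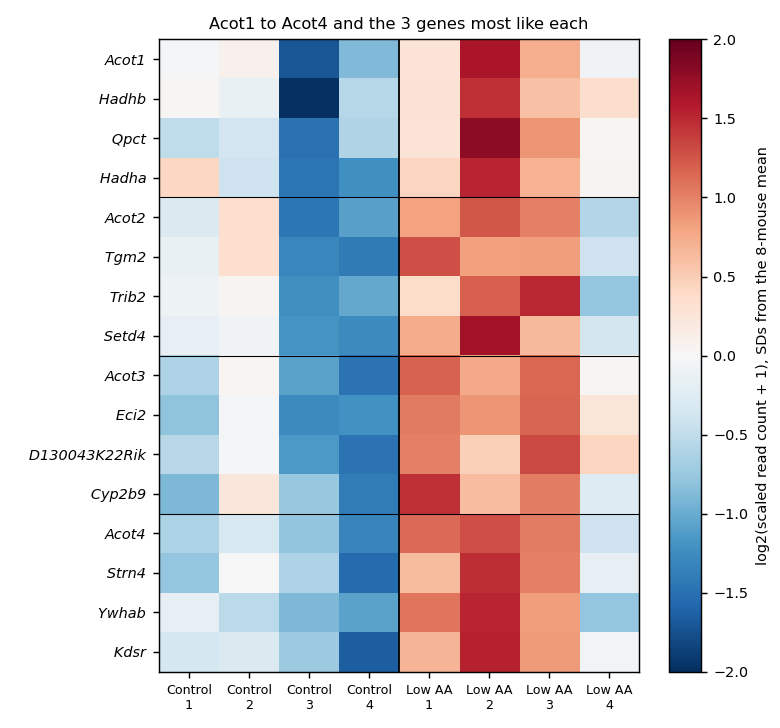
Log2(scaled read count + 1) of Acot1 to Acot4 and the 3 genes most correlated with each, in SDs from each gene's mean over the 8 mice, with Control mice on the left and Low AA mice on the right of the line. Low AA mice 1 to 3 are above the mean in every row, and Control mice 3 and 4 are below it; the genes were chosen for this likeness.

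Among 14 measured genes of 18 listed for other acyl-CoA and acyl hydrolases and related acyltransferases, 1 was called higher and 0 lower. Over all genes, 0.102% were called higher and 0.297% lower. The called gene was Acnat2, a peroxisomal relative of the bile acid conjugating enzyme Baat. Its scaled counts were 2875, 3090, 3337 and 1851 in Low AA mice 1 to 4 and 1232, 1248, 1417 and 1529 in Control mice 1 to 4, so the diets did not overlap, although Low AA mouse 4 was again the lowest of its group. Acnat2 rose by 1.01 on the log2 scale (SE 0.17) with a limma adjusted p of 0.0414. The call was lost in 7 of the 8 comparisons that left out 1 mouse, with adjusted p up to 0.138, and held without Low AA mouse 4. Baat itself had a log2 fold change of -0.11, and the lowest of the list was Acot11, a thioesterase known from brown fat, at -0.37. Acot5, Acot6, Acot10 and Them5 were not analysed here. The median of the list was -0.01 on the log2 scale. In this list 1 gene, Acnat2, lay wholly higher and 0 wholly lower on Low AA, beside 3.26% and 3.55% of all genes.

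Genes that make or feed acyl-CoA showed no called change, where 0.399% of all genes were called. Of 15 measured acyl-CoA synthetases and fatty acid transport proteins of 21 listed, 0 were called in either direction. The highest was Acsl5, a long-chain acyl-CoA synthetase, with a log2 fold change of 0.37, and the lowest was Acss2, the cytosolic acetyl-CoA synthetase, at -0.51. Neither overlapped between the diets, and their limma adjusted p-values were 0.255 and 0.113. In this list 1 gene lay wholly higher and 2 wholly lower on Low AA, beside 3.26% and 3.55% of all genes. In the coenzyme A list, 0 of 11 genes were called, while 9 had a positive log2 fold change and the median was 0.15. There 2 genes, Vnn3 and Pank1, lay wholly higher on Low AA and 0 wholly lower. Log2 fold changes were 0.53 for Vnn3, a pantetheinase (limma adjusted p 0.0812), 0.45 for Pank1, a pantothenate kinase (limma adjusted p 0.119), and -0.20 for Coasy, which completes coenzyme A.

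The peroxisomal list, the setting of Acot3, Acot4 and Acot8, also had 0 of 22 genes called, beside 0.399% of all genes. The median log2 fold change of this list was 0.05. Its highest was Hacl1, the lyase of alpha-oxidation, at 0.87 (limma adjusted p 0.0811), and Pex11a, which drives peroxisome division, was at 0.55 (limma adjusted p 0.0869). For both genes the diets did not overlap, and in this list 4 genes lay wholly higher and 1 wholly lower on Low AA. In the carnitine shuttle and mitochondrial beta-oxidation list, 0 of 19 genes were called, while 18 of the 19 had a positive log2 fold change and the median was 0.19. The highest was Crat, carnitine acetyltransferase, at 0.57 (limma adjusted p 0.124), and the lowest was Acads at -0.04. Etfdh was at 0.40 (limma adjusted p 0.0831) and the carnitine carrier Slc25a20 at 0.25 (limma adjusted p 0.273), both without overlap, as was Crat. In this list 6 of the 19 genes lay wholly higher on Low AA and 0 wholly lower, beside 3.26% and 3.55% of all genes. The median log2 fold change over all genes was 0.0023.

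Ppara itself was higher by 0.23 on the log2 scale, far from passing (limma adjusted p 0.538), and 0 of the 10 listed regulators were called. Their range ran from -0.32 for Srebf1 to 0.51 for Ppargc1a. Of 17 measured PPARA targets outside the other lists, of 19 listed, 1 was called higher and 0 lower, with a median log2 fold change of 0.40. Cyp4a31, a fatty acid omega-hydroxylase, rose by 1.26 on the log2 scale with a limma adjusted p of 0.0183, from 3460 to 5522 scaled counts on Control to 9181 to 13610 on Low AA. The call was lost without Low AA mouse 2 (limma adjusted p 0.0650) and without Low AA mouse 3 (0.0672). The highest value was that of Pdk4, the kinase that turns off pyruvate dehydrogenase, at 1.40, but its spread was wide (SE 0.53, limma adjusted p 0.324). The lipid droplet protein gene Plin5 was at 0.64 and the mitochondrial carrier gene Slc25a34 at 0.63, with limma adjusted p-values of 0.0811 and 0.0847 and no overlap, and the lowest was Fitm1 at -0.60. Of these 17 targets 5 lay wholly higher on Low AA and 0 wholly lower, beside 3.26% and 3.55% of all genes. In the list of acyl-CoA and fatty acid binding proteins, 0 of 10 measured genes were called, from -0.25 for Acbd6 to 0.54 for Fabp5. Together 2 of 118 measured related genes were called, both higher, beside 0.399% of all genes.

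Bulk liver RNA cannot tell fewer cells of a type from less RNA per cell. Macrophage and Kupffer cell markers summed to 10954 to 15113 on Low AA and 9960 to 15397 on Control over 11 measured of 12 listed, and 11 of the 11 had a positive log2 fold change, with a median of 0.21 and 0 called. Stellate cell markers, 9 of 9 measured, summed to 8151 to 10194 and 8399 to 10546, and endothelial markers, 8 of 8 measured, to 7659 to 8277 and 6424 to 8689. The stellate sum is mostly Dcn, and 8 of the 9 genes were lower on Low AA with a median log2 fold change of -0.34 and 0 called, among them Col1a1 at -1.07 (limma adjusted p 0.148), whose diets did not overlap. Cholangiocyte markers, 4 of 6 measured, summed to 826 to 1316 on Low AA and 1124 to 2265 on Control, and blood cell markers, 9 of 12 measured, to 10464 to 15404 and 8033 to 30650. The cholangiocyte genes were lower in 4 of 4, with a median of -0.62 and 0 called, and the median of the blood cell genes was -0.46 with 0 called. Acute-phase genes, 17 of 17 measured, summed to 523654 to 641230 on Low AA and to 497550 to 566168 on Control without Control mouse 2, which was at 864754. Orm1 was wholly lower on Low AA, at 955 to 5794 scaled counts against 8111 to 16131, which is -2.06 on the log2 scale (limma adjusted p 0.0908). Of the 17 genes 0 were called, 8 had a positive log2 fold change, and the median was -0.19. In this list 1 gene lay wholly higher and 2 wholly lower on Low AA, beside 3.26% and 3.55% of all genes. The part of these cell types and of the acute-phase genes in the thioesterase values was not tested.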

How the data were processed

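Liver mRNA libraries of 4 Control and 4 Low AA mice were analysed, each mouse as 1 replicate. Per gene and mouse, the authors deposited 1 signal value, a scaled and rounded read count whose scaling is not given in the sources used here, with their own signed fold change (a score) and FDR (a q-value, from a p-value), neither of which was used. The submitters' processing notes name bcl2fastq 1.8.2, STAR 2.5.0a, RSEM 1.2.6, edgeR 3.10.5, R 3.2.1 and the build mm10. The libraries were stranded, but whether counting used the strand is not given in the sources used here. Reads from overlapping genes on opposite strands may therefore not have been told apart in the values.

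The limma test (version 3.58.1, run under R 4.3.3) compared log2(value + 1) between the diets, using a trended prior variance, no covariate and Benjamini-Hochberg adjustment over all 11784 genes, at an adjusted p under 0.05. A fold change on this scale understates that of low genes. The fit was tested on simulated data with 200 changed genes. No count test was run, since the values are not raw counts, and read depth per mouse is known only on the scaled values. For each member and each pair ratio, the mean log2 values of the diets were compared with an exact two-sided permutation test (scipy 1.17.1). Alternatives were the 8000 genes of highest mean, other pseudocounts (0.1 or 5), 2 rescalings, no trend, robust variance, observation weights and leaving out each mouse.

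The members and gene lists were chosen with earlier results of these data known. The genes named were the 9 members, the called, highest and lowest genes of each list with genes that did not overlap between the diets and had one of the 3 smallest p-values of the list, and the 3 genes most correlated with each member with an unadjusted p under 0.05. 1 gene that this rule picks is not reported here. Baat, Pctp, Ppara, Col1a1, Dcn, Orm1 and the neighbours of the cluster were added after values were seen. Gene positions, lengths and exons are from GENCODE for GRCm38, the build mm10 names, and windows before start sites are from RefSeq. One gene of the hydrolase list, Them6, was matched as 4930572J05Rik.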

Additional observations from a re-analysis of the deposited data

Results flagged for a closer look

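In 18 groups of 4 mice, 1 for each thioesterase gene and diet, the highest and lowest values were compared with the rest, and chance alone marks about 1 such group in 20. In the Low AA group of Acot4 the lowest mouse, Low AA mouse 4 (1557 scaled counts), was separated from the nearest by 0.837 of the range of the group on the log2 scale, above the 95% critical value of Dixon's test for 4 samples. In the Low AA group of Acot13 the lowest mouse, Low AA mouse 1 (1030 scaled counts), was separated from the nearest by 0.836 of the range of the group.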

How the results depend on the processing

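No paired analysis was possible because the mouse codes are not shared between the diets and the numbers only name mice. The count of genes called was 47 with all mice, 19 among the 8000 genes with the highest mean, 30 with no trend and 132 at an adjusted p under 0.1. It ran from 16 without Low AA mouse 3 to 77 without Control mouse 2. Members called were 0, and 1 (Acot3) at an adjusted p under 0.1, and leaving out 1 mouse gave 0 to 1 called and 0 to 4 not overlapping, with 4 (Acot1 to Acot4) without Low AA mouse 4, 2 without Control mouse 2 and 1 (Acot12) without Control mouse 4. Related genes called were 2, and 1 among the 8000 genes with the highest mean, with equal totals or with no trend, where Acnat2 had adjusted p-values of 0.0573, 0.0711 and 0.0715 in limma. Leaving out 1 mouse gave 0 to 5 related genes. Differences near 0 changed sign when 1 mouse was left out, with the range over such comparisons in parentheses: Acot7 (-0.12 to 0.039) was at 0.032 without Low AA mouse 2 and 0.039 without Control mouse 2, Acot8 (-0.092 to 0.12) at -0.045 without Low AA mouse 2 and -0.092 without Control mouse 3, Acot9 (-0.18 to 0.039) at 0.039 without Low AA mouse 4, and Acads (-0.11 to 0.024) at 0.0061 without Control mouse 1 and 0.024 without Control mouse 2. The log2 fold changes of Acot1 to Acot4 stayed positive under all 16 alternatives, and outside the comparisons that left out a mouse Acot3 kept a log2 fold change of 1.96 to 1.97. The cause of each shift was not tested.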
